A study of Drosophila melanogaster with 4 samples.

Results

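The intron peaks of short genes were 723 of the 5211 peaks that CG1233-GFP gave in the authors' optimal list from whole Drosophila embryos. A peak belonged here when its summit, the base of highest signal, lay more than 500 bp from every annotated transcription start site (TSS), outside every annotated exon and inside a protein-coding gene, with the longest such gene under 20 kb. The 723 summits fell in 512 host genes. For 38 of them the summit lay in more than 1 protein-coding gene, and these were counted under the longest host. Within the optimal list, positions alone chose the members. The list itself was set by signal, since it holds the strongest of the pooled calls.

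Chromatin immunoprecipitation followed by sequencing (ChIP-seq) maps where a protein sits on DNA. The line carried CG1233 with GFP at its C terminus, and 4 biological replicates of mixed-sex embryos aged 0 to 24 h formed the only group, so no treatment or genotype was compared. Each sample description calls its library an input control, whereas the antibody field names CG1233. All values rest on reading the lists as ChIP calls. Whole embryos of all ages in that window were used, so a peak cannot be placed in 1 tissue or stage, and the labels name no promoter that drives the fusion. Replicates 1 and 3 stood together in several measures, apart from replicates 2 and 4, and no label separates these pairs. Sequencing depth cannot be read from the lists.

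Introns of Drosophila genes commonly hold enhancers, the switches that set where and when a gene is transcribed, and first introns are known as a frequent home for them. In short genes an enhancer in an intron is never far from the promoter. Enhancers are read by sequence-specific factors, such as the forkhead family, whose winged-helix domain binds a core written TGTTTAC on one strand and GTAAACA on the other.

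The windows within 50 bp of the summit are given for the 8 strongest members on X, 2L, 3L and 3R that every replicate ranked among its strongest calls, because they show what the highest signal sat on. The ninth window, of CG9921, is the strongest member with the homeodomain core TAATTA. All are dm6 plus-strand sequence, 5′ to 3′, and capitals mark the forkhead word on either strand.
CG14434, chrX:6853430-6853530: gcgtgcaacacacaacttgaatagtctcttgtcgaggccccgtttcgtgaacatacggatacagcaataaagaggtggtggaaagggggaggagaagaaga
CG43736 and CG14434, chrX:6866146-6866246: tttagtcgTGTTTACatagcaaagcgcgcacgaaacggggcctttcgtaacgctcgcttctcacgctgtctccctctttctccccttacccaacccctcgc
CG11050, chr2L:6612672-6612772: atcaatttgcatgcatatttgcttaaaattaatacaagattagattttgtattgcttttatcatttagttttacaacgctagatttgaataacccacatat
Trl, chr3L:14759484-14759584: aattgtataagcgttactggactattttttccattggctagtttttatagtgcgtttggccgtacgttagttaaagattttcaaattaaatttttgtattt
CG32772, chrX:4910317-4910417: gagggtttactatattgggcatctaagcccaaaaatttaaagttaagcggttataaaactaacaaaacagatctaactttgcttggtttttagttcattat
Lk6, chr3R:11761016-11761116: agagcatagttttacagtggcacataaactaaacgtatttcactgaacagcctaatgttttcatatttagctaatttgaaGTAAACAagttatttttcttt
CG9663, chr2L:3302134-3302234: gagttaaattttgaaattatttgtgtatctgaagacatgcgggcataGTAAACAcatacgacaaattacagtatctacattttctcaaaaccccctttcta
chif and Hyls1, chr2L:16351194-16351294: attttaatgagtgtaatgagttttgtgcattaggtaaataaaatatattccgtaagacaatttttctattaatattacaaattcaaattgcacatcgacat
CG9921, chrX:16332956-16333056: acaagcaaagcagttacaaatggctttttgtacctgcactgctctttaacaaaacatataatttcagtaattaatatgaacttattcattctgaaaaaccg

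Among these windows, 3 held the forkhead word. A further 4 members with the word, among the next by rank on the same arms and chosen after their values were seen, show how it sits in its surroundings.
Csk, chr3R:11649614-11649714: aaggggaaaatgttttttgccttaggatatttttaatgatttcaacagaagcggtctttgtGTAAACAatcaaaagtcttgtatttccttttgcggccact
SCaMC, chr3L:12407099-12407199: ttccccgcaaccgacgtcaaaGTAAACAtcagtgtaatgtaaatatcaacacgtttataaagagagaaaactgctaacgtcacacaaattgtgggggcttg
Oatp30B, chr2L:9525816-9525916: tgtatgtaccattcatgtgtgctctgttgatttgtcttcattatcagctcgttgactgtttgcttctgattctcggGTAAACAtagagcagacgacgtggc
Unc-115a, chr3R:9702730-9702830: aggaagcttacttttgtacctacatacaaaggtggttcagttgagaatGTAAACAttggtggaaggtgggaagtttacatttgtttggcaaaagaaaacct

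The pair of strongest members stood apart from the other windows of the first set in composition. The window inside CG14434 was 49.5% GC and the one shared by CG43736 and CG14434 was 55.4% GC, whereas the other 7 windows of the first set had between 23.8% and 32.7%. Such values were not rare over all members, of which 90 had 45% GC or more, with a maximum of 66.3%. The 2 windows also shared a stretch of 15 bases in opposite orientation, aggccccgtttcgtg. On the chromosome arms this stretch occurred 2 times in all, once in each of the 2 windows. Over the 36 pairs of windows in that set, the next longest shared stretch was 11 bases and the median 8. The stretch was noticed in the sequences first, and the comparison describes these windows only.

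Ranks in the pooled list and in the separate replicate lists tell how stable a member was. Rank 1 is the strongest of 30000 calls in a list, and the signal behind it is the caller's own score, which cannot be compared between lists. The CG14434 member (FBgn0029915, host on X from 6851909 to 6867194, minus strand) ranked 3 in the optimal list and 2, 6, 6 and 3 in replicates 1 to 4. It lay in the second and last intron of the canonical transcript, 585 bp from the nearest TSS. The member shared by CG43736 and CG14434 ranked 4, and 4, 4, 7 and 5 in the replicates. CG11050 had the member of rank 8, in an intron of 140 bp, and it ranked 11, 9, 11 and 8. These members were among the 11 strongest calls of every replicate.

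Next came Trl, which encodes the GAGA factor, a protein that opens chromatin at promoters. Its member ranked 17, and 16, 17, 38 and 13 in replicates 1 to 4. CG32772 had the member of rank 19. Lk6, a kinase that phosphorylates the translation factor eIF4E, had that of rank 20 in its first intron, and it ranked 15, 19, 25 and 26. The member of HmgD, one of a pair of neighbouring genes for HMG-box chromatin proteins with HmgZ, ranked 24 and lay within both genes. It was at ranks 31, 24, 93 and 16, lowest in replicate 3. CG9663 followed at rank 26, and chif and Hyls1 at 46 (chif is needed for DNA replication and eggshell gene amplification).

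The member of Tre1, a receptor needed for germ cell migration, separated the replicates into pairs. At rank 132 in the optimal list, it had ranks 47 and 81 in replicates 1 and 3, and 192 and 236 in replicates 2 and 4. Adf1, which encodes a transcription factor of the MADF family, had rank 116 and was at 149, 95 and 77 in replicates 1, 2 and 4 but at 1359 in replicate 3. Further hosts among the 20 strongest members were CG12769 (rank 75), Reph (94), CG32486 (95), CG9837 (96), CG31635 (98), the fatty acid elongase gene Baldspot (120), the histone demethylase gene Kdm2 (129) and CG9921 (142). All 20 were held by every replicate.

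Taken as a class, the members were held by the replicates about as often as other peaks. A replicate held a peak if any summit among its 5211 strongest calls fell within the peak. Replicates 1 to 4 held 77.7%, 87.4%, 71.2% and 84.1% of the members, against 73.9%, 89.5%, 68.6% and 84.1% of the 1164 intron peaks in genes of 20 kb or more, called long-gene intron peaks here. Over all optimal peaks the same 4 shares were 74.3%, 86.8%, 69.7% and 83.6%. The members averaged 80.1% ± 7.16 and the long-gene intron peaks 79.0% ± 9.52 (SD, n = 4 each). The mean difference of 1.10 percentage points was higher in 2 of 4 replicates and smaller than its SD of 2.68 (two-sided exact sign-flip permutation p = 0.5, where 0.125 is the smallest that 4 replicates allow). Against the 2424 promoter peaks, whose mean was 78.6% ± 6.33, the difference was 1.55 ± 1.20 points and positive in 3 of 4 replicates (exact permutation p = 0.25).

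All 4 replicates held 369 members, or 51.0% (exact Clopper-Pearson 95% interval 47.3 to 54.7%, counting error only), against 48.6% of long-gene intron peaks and 48.2% of all optimal peaks. Replicates 2 and 4 alone held 64 members (8.85%), against 10.9% of all optimal peaks. Replicates 1 and 3 alone held 21 (2.90%), against 3.72% of all. A single member was held by none, at ago, an F-box gene that targets Cyclin E for destruction. It had rank 5006 and called summits at ranks 5936, 7652 and 6822 in replicates 1, 3 and 4. A call at some rank was present in every replicate list for 656 of the 723. The optimal list was derived from the same 4 alignments, so agreement is partly built in.

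**Figure D1:**
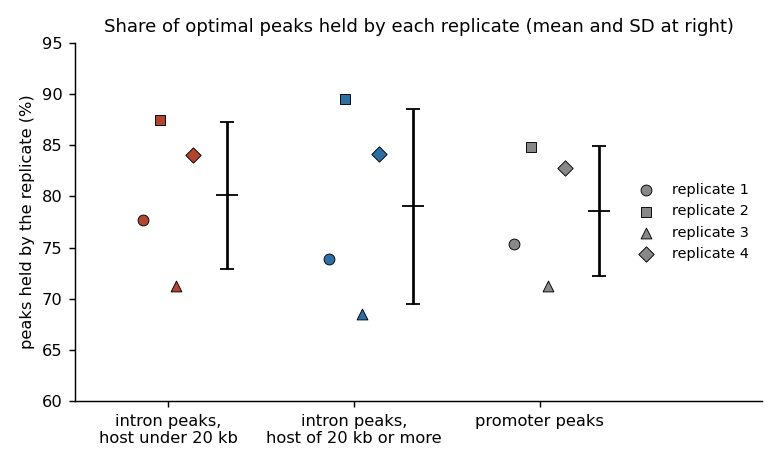
Share of peaks (%, axis from 60) held by each of the 4 replicates, for intron peaks in hosts under 20 kb, intron peaks in hosts of 20 kb or more and promoter peaks; bars are mean ± SD. In all 3 classes replicate 2 held the most, from 84.9 to 89.5%, and replicate 3 the fewest, from 68.6 to 71.3%.

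By strength the members lay in the middle of the optimal list. Their median rank was 2631, against 2759 for long-gene intron peaks and 2398 for promoter peaks, and the median of all was 2606. In the replicates' own lists the median member stood at percentile 91.4, 91.4, 90.5 and 91.0, against 89.97, 90.985, 88.8 and 90.6 for long-gene intron peaks. The members were higher in 4 of 4 replicates, by 0.97 ± 0.67 points (SD, n = 4; exact sign-flip permutation p = 0.125, the smallest possible). Of the 100 strongest optimal peaks, 15 were members, close to the members' share of 13.87% of the whole list. Of the 3909 pooled calls of any strength in the same kind of sequence, 18.5% reached the optimal list, against 13.3% of calls in long-gene introns, 27.6% at promoters and 17.4% of all pooled calls. Each replicate's strongest calls were short-gene intron calls in 13.7%, 13.8%, 12.9% and 13.55% of cases, against 12.8%, 12.2%, 13.3% and 12.1% of its weaker calls. The difference of 0.88 ± 0.92 points was positive in 3 of 4 replicates and turned negative in replicate 3 (exact permutation p = 0.25).

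Short-gene introns were densely occupied. The sequence that meets the rule amounted to 11.7 Mb in 7370 candidate genes, against 39.9 Mb in longer genes. It held 61.9 summits per Mb, against 29.2 per Mb in long-gene introns. With each replicate's own strongest calls the densities were 61.2, 61.8, 57.6 and 60.5 per Mb in short-gene introns, against 26.3, 30.8, 26.2 and 29.2 per Mb in long-gene introns. No replicate brought the groups near each other, and the ratio was 2.33, 2.01, 2.20 and 2.07. On the log2 scale it averaged 1.10 ± 0.10 (SD, n = 4; exact sign-flip permutation p = 0.125, the smallest possible).

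By host length, density was highest in genes of 5 to 10 kb and fell in each longer class, while the shortest genes lay below the class of 20 to 30 kb. Introns of genes under 5 kb held 48.5 summits per Mb, those of 5 to 10 kb held 68.1, those of 10 to 15 kb 63.4 and those of 15 to 20 kb 61.9. Beyond the limit, genes of 20 to 30 kb had 52, genes of 30 to 50 kb 34.7, genes of 50 to 100 kb 31.5 and longer genes 13.2 summits per Mb. At the limit itself, 38 members lay in hosts of 19 to 20 kb and 22 peaks in hosts of 20 to 21 kb, with median ranks of 2951.5 and 3484. At the other limit, 64 members lay 500 to 600 bp from a TSS, with a median rank of 1954, and 57 intronic summits in short genes lay 400 to 500 bp away, with a median rank of 2522.

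Distance to a TSS moved with the difference. At 500 to 1000 bp from the nearest TSS, short-gene introns held 94.7 summits per Mb and long-gene introns 72.5. At 1 to 2 kb they held 75.9 and long-gene introns 54.7. At 2 to 5 kb they held 43.5 and long-gene introns 42.5, so the classes were nearly equal there. Beyond 5 kb they held 39.0 and long-gene introns 17.7. Long-gene introns had 25.6 Mb of their 39.9 Mb beyond 5 kb, whereas short-gene introns had 1.97 Mb of 11.7 Mb there. These classes were added after the ratio had been seen, and within them no test was run.

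**Figure D2:**
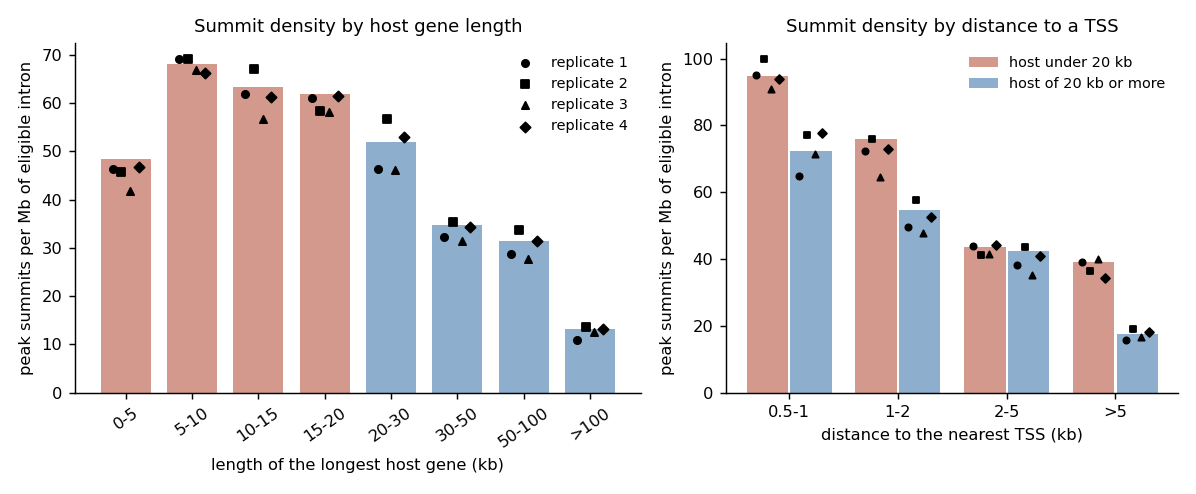
Peak summits per Mb of intron sequence that meets the rule, by length of the longest host (left, kb) and by distance to the nearest TSS (right, kb). Bars are the optimal list and points the strongest calls of the 4 replicates. Hosts of 5 to 10 kb had 68.1 summits per Mb and hosts over 100 kb had 13.2, and at 2 to 5 kb from a TSS the bars were 43.5 and 42.5.

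The major arms carried members at similar densities, with 119 members on X (61.3 per Mb), 117 on 2L (55.8), 143 on 2R (62.8), 156 on 3L (66.4) and 188 on 3R (68.8). Chromosome 4 had 0 members in 0.277 Mb, which allows up to 10.8 per Mb, and it also had 0 long-gene intron peaks in 0.279 Mb. It had 19 optimal peaks in other places. The pooled list held 21 weaker calls in short-gene introns of that chromosome.

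First introns held most of the members. Of the 723, 435 (60.2%, exact 95% interval 56.5 to 63.8%) lay in the first intron of the host's canonical transcript, which made up 43.3% of the eligible sequence. Later introns held 218 (30.2%) in 51.1% of the sequence. The other 70 (9.68%) lay in the gene but outside the introns of that transcript, in 5.65% of the sequence. Counting the first intron of any transcript, the share was 79.0%, but the share of eligible sequence under that wider count was not computed. Per Mb, first introns held 86.1 members and later introns 36.6, while the 0.66 Mb outside the introns of that transcript held 106. The classes of distance were read for first and later introns only. At 500 to 1000 bp from the nearest TSS the densities were 113 and 57.5 per Mb, at 1 to 2 kb 102 and 40.8, at 2 to 5 kb 58.6 and 30.8, and beyond 5 kb 64.8 and 28.3, each with first introns given before later ones. First introns were denser than later ones in all 4 distance classes. The median intron that held a member was 4418 bp long, against a median of 3314 bp for the introns of all eligible sequence, weighted by that sequence.

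Most hosts had a single member, but 144 hosts with more than 1 held 355 of the 723. Of the 7370 genes with eligible sequence, 6.95% were hosts, and that share climbed with the sequence on offer, from 0.401% of genes with up to 500 bp to 29.7% of genes with more than 4 kb. Hosts had a single member in 368 cases, 2 in 104, 3 in 21, 4 in 13 and 5 in 5. Neighbouring members of the same host lay a median of 1295 bp apart, and 44 of the 211 gaps were under 500 bp. The median member was 424 bp wide, so close neighbours can overlap, and 6 members lay in an interval with more than 1 summit. The counts per host are therefore counts of summits. Whether close summits are separate binding sites was not tested.

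PRAS40, a negative regulator of the TORC1 growth kinase complex, was the one host with 7 members. They spanned 8512 bp of a gene of 16126 bp on 2R, the strongest ranked 362, and 4 of the 7 were held by all replicates. Hosts with 5 members included CG42258, Dad, jumu and Rgl. Dad, which encodes the inhibitory Smad of Dpp signalling, had none of its 5 held by all 4. Its strongest, at rank 862, had no call in replicate 3, and 2 others were held by replicates 1 and 3 alone. jumu, which itself encodes a forkhead-domain transcription factor, had 5 members over 6180 bp with ranks 1190 to 4639, of which 3 were held by all 4. Rgl, a guanine nucleotide exchange factor for Ral, had 2 of 5 held by all 4.

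The 13 hosts with 4 members covered several pathways. In growth and signalling they were wts, the kinase of the Hippo pathway, Sik3, a salt-inducible kinase, and loco, a regulator of G protein signalling. In metabolism and RNA turnover they were bmm, a triglyceride lipase that empties lipid droplets, and PAN3, a subunit of a poly(A) nuclease. The histone demethylase gene Kdm2, the inward-rectifier potassium channel gene Irk1, Pits, babos, CG14434, CG10543, CG6191 and CG3764 complete the list. All 4 members of babos were held by every replicate, and none of those in PAN3.

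Hosts also had promoter peaks more often than other genes that could have held a member. Of the 512 hosts, 208 (40.6%, exact 95% interval 36.3 to 45%) had an optimal summit within 500 bp of one of their TSSs, against 1518 of the 6858 other candidate genes (22.1%). Hosts had more eligible sequence, so the shares were also set side by side by its amount. With more than 4 kb of it, 130 of 285 hosts (45.6%) had a promoter peak, against 134 of 675 other candidates (19.9%). With 2 to 4 kb the shares were 33.7% of 104 hosts and 23.7% of 518 others, and with 1 to 2 kb 38% of 79 hosts and 26.3% of 601 others. With 500 to 1000 bp they were 25.9% of 27 hosts and 23.8% of others, and with less sequence 35.3% of 17 hosts and 21.4% of others. These are descriptions without a test.

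Of the gene lists, some had many candidates and no member. The lists were chosen with earlier results of these data known, and a gene could host a member only if it was under 20 kb and had eligible sequence. None of the 25 candidate genes for cytosolic ribosomal proteins was a host, and none of 20 for mitochondrial ribosomal proteins, with medians of 114 and 108 bp of eligible sequence each. Gap and pair-rule genes had 0 of 10, heterochromatin genes 0 of 11 and blood and fat body genes 0 of 9. The last had a median of 5942 bp of eligible sequence, more than any other list. The share among all candidates was 6.95%. It was 0.401% among genes with up to 500 bp of eligible sequence and 29.7% among those with more than 4 kb. Gap and pair-rule genes had a median of 364.5 bp and heterochromatin genes 375 bp. These lists and the ribosomal lists thus had medians under 500 bp, where hosts were rare among all candidates. Their counts of 0 therefore cannot set them apart from other genes with as little sequence. No list was matched for eligible sequence.

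Regulators of stress and metabolism had the most hosts, 7 of 21 candidates (33.3%, median eligible sequence 866 bp) with 11 members. They were Hph, the oxygen-sensing prolyl hydroxylase (rank 499), SREBP, a lipid synthesis regulator (904), Sik2 (1773), Sik3 (1916), S6k, the ribosomal S6 kinase (2898), Lpin (4083) and Akt (5131). Polycomb and Trithorax group genes, which keep developmental genes silent or active, had 5 of 23, led by Trl, ph-p (485) and Psc (560), followed by brm (2670) and Su(z)2 (4507). All 5 also had a promoter peak, and the median eligible sequence of the list was 764 bp. Trl was also the single host among 13 insulator and promoter architecture genes.

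Cytoskeleton genes had 4 of 15, namely tsr, the cofilin gene (368), chic, the profilin gene (959), Arp2 (1399) and dia, a formin (1669). Muscle and mesoderm genes had 4 of 15 too, Zasp66 (1907), nau, the myogenic factor (2315), Prm, paramyosin (3943) and kon (4276), and none of the 4 had a promoter peak. Autophagy and apoptosis genes had 3 of 13, the caspase inhibitor gene Diap1 (324), the Jun kinase phosphatase gene puc (2130) and the cell death gene hid (4311). In the order of these lists, the median eligible sequence was 1662, 2912 and 1338 bp.

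Signalling lists had a few hosts each. Over all candidates 6.95% were hosts, from 0.401% of genes with up to 500 bp of eligible sequence to 29.7% with more than 4 kb. The counts of each list were not matched for that sequence, so its median is given. Jak-Stat genes had 2 of 9, the feedback inhibitor Socs36E with 3 members (best rank 598) and the transcription factor Stat92E with 2 (1025). Dpp, Toll and dorsoventral genes had Mad (401) and cact (4417) of 9, and Wnt and Hedgehog genes had the receptor gene ptc with 2 members (901) and the ligand gene hh (3907) of 12. Of Notch genes neur (1319) of 9 was a host, and of Egfr and Ras genes drk (402) of 6. In the order given, the median eligible sequence of these signalling lists was 2114, 2237, 4165, 897 and 907.5 bp. Among the rest were Hsp83 (634) and stv (4525) of 8 chaperone genes, E23 (1324) of 4 ecdysone genes, crb (1472) of 5 tracheal and epithelial genes, and Cdk4 (2121) and Myc (3294) of 19 cell cycle genes. Hrb27C (2544) and sqd (4700) were hosts of 13 RNA-binding genes, pAbp (1661) of 13 translation factor genes, piwi (4514) of 11 germline genes, and insc (3839) and Rbp9 (5111) of 3 proneural and neuroblast genes. From the chaperone genes on, the medians were 434, 5405.5, 1144, 694, 479, 447, 709 and 4345 bp.

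Summits sat in local troughs of GC content. The 101 bp window around the summit had a mean of 34.6% ± 8.56 GC (SD over 723 members), against 42.4% ± 9.68 in the windows centred 500 bp to either side. These flanks were not limited to eligible sequence, and windows that tile all eligible sequence had a mean of 39% GC. With each replicate's own strongest short-gene intron calls, the summits had 37.6%, 34.6%, 36.3% and 33.8% GC, against 41.6%, 42.4%, 41.6% and 42.5% in their flanks. Summits were lower in 4 of 4 replicates, with a mean difference of -6.44 ± 2.15 points (SD, n = 4; exact sign-flip permutation p = 0.125, the smallest possible). The trough was shallower in replicates 1 and 3 than in replicates 2 and 4, at -4 and -5.34 against -7.75 and -8.68 points. Among weaker calls the summits averaged 40.6% and the flanks 41.5%. Long-gene intron peaks, with a difference of -7.40 points, and promoter peaks, with -9.06 points, had troughs of similar size.

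Of the 25 words searched, the forkhead word had the highest ratio of summit share to flank share, whereas TATAAA had the larger difference in percentage points. It lay within 50 bp of 64 of the 723 summits (8.85%, exact 95% interval 6.88 to 11.2%), against 2.01% of the flanks and 2.58% of 100537 windows that tile all eligible sequence. The word on both strands was counted once per window. The 64 members lay in 62 hosts, with 2 each in PRAS40 and CG10543. Within the window, the word was centred a median of 23.5 bp from the summit, where even placement over 50 bp to either side would also give a value near the middle of that range. In 50 bp bins it was in 4.56% of members at the summit, 3.6% in the bins 50 bp to either side, and 1.38% and 1.11% at 400 bp.

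Every replicate gave the same direction on its own calls. In replicates 1 to 4 the word was at 8.96%, 6.38%, 9.67% and 6.66% of the strongest short-gene intron summits, against 2.24%, 1.87%, 2.68% and 2.76% of their flanks. The lowest summit share was above the highest flank share. The difference was 5.53 ± 1.56 points and positive in 4 of 4 replicates (SD, n = 4; exact sign-flip permutation p = 0.125, the smallest possible). This test was not planned. The word had stood out in the pooled list, which was derived from the same 4 alignments, so agreement in direction is partly built in. Among each replicate's weaker calls the shares were 3.89%, 4.27%, 4.73% and 3.99%, against 2.72%, 2.81%, 2.74% and 2.96% of their flanks. The difference was larger in replicates 1 and 3 (6.72 and 6.99 points) than in replicates 2 and 4 (4.51 and 3.90), the reverse of the order in GC.

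Base composition moved with the summits, so the share was read within classes of GC. At windows of under 30% GC, 3.17% of 252 members held the word, against 2.96% of tiles. At 30 to 35% the share was 9.04% of 166 members against 3.34% of tiles, at 35 to 40% 11.5% of 131 against 2.91%, and at 40 to 45% 19% of 84 against 2.39%. At 45% or more it was 11.1% of 90 against 1.75%. The word was more frequent at summits in the 4 upper classes, and in the most AT-rich class the shares were close.

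**Figure D3:**
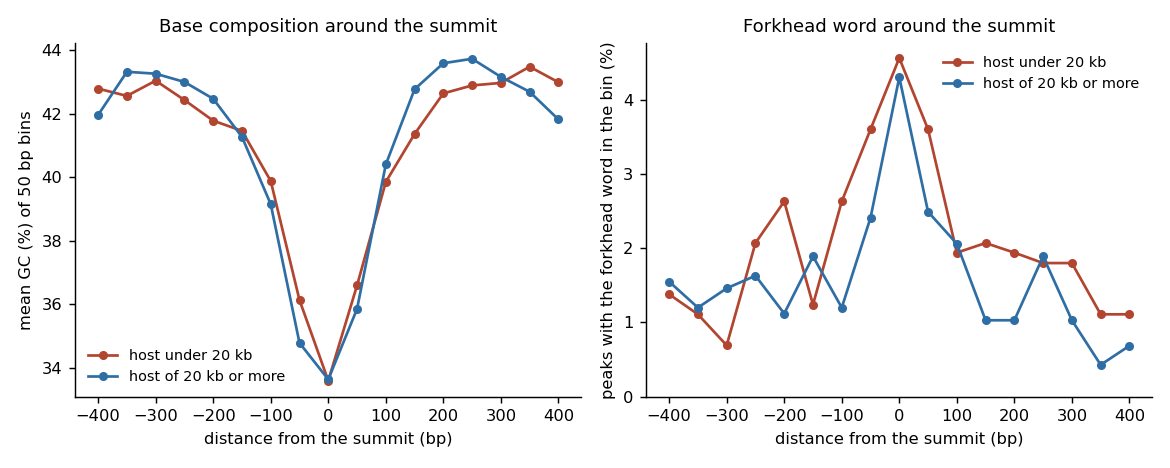
Mean GC (%) and the share of peaks with the forkhead word (%) in 50 bp bins from 400 bp on one side of the summit to 400 bp on the other, for intron peaks in hosts under 20 kb and in hosts of 20 kb or more. GC reached 33.6% at the summit in both classes, and the word peaked there at 4.56% and 4.30%.

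**Figure D4:**
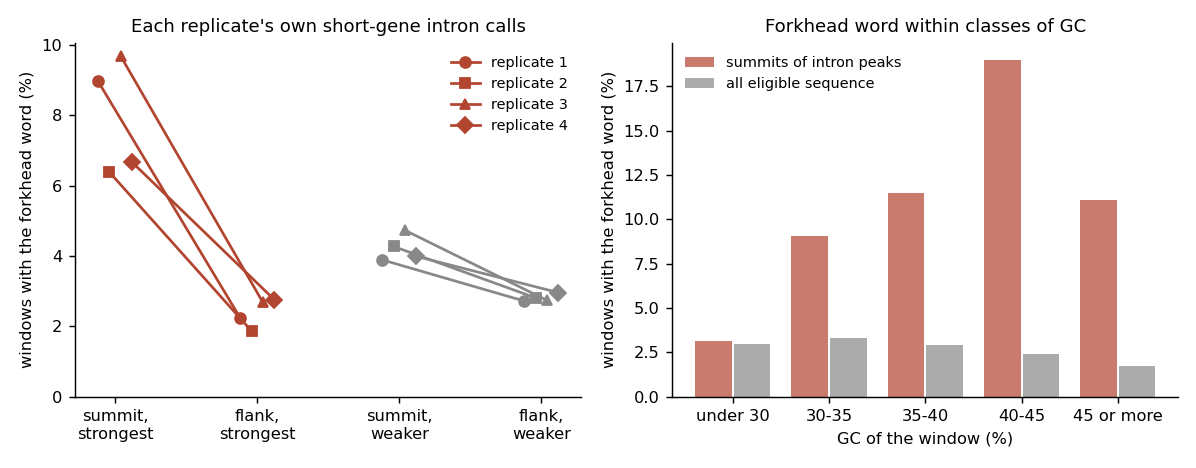
Share of windows (%) with the forkhead word: left, at summits and flanks of each replicate's strongest and weaker short-gene intron calls (lines join the values of a replicate); right, at the summits of the 723 intron peaks and in all eligible sequence, by GC of the window. Strongest calls had 6.38 to 9.67% at summits and 1.87 to 2.76% in flanks, and the bars at 40 to 45% GC are 19% and 2.39%.

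Against all 8192 words of 7 bases, counted with their reverse complements, the forkhead word ranked 7 by the difference between summits and flanks. The words above it were built of A and T or differed from it by a base. One of them, TATTTAC, was at 71 summits (9.82%, against 2.56% of flanks and 3.28% of tiles), and 126 members (17.4%) held either word, against 4.50% of flanks and 5.76% of tiles. Among the 185 words found in at least 5% of members, TGTTTAC ranked 2 by the ratio of summit to flank share, at 4.41. First was GTTTACT, an overlapping word, at 5.67% of summits and 1.18% of flanks. Of the 210 words made of the same letters, TGTTTAC had the largest difference, and the median of those words was 2.07% at summits and 1.45% in flanks. This search was added after the first words had been counted.

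The word was not particular to short genes. Long-gene intron peaks held it at 7.47% of summits and 2.15% of flanks, and promoter peaks at 4.83% of summits and 2.25% of flanks. Split by rank into 4 equal sets from the strongest on, 11%, 8.29%, 7.18% and 8.89% of members held it. Of the 64 members with the word 39 (60.9%) were held by all 4 replicates, against 50.1% of those without it.

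Several other words rich in A and T were also more frequent at summits than in flanks. The A tract AAAAAAAA was not, at 6.78% of members against 7.12% of flanks. The TATA box core TATAAA was at 157 members (21.7%), against 11.8% of flanks and 14.8% of tiles. The Caudal site TTTATG was at 16.7%, against 10.8% of flanks and 13% of tiles, whereas at long-gene intron peaks the shares were 14.2% of summits and 14.1% of flanks. The homeodomain core TAATTA (9.54% against 6.43%), the Su(Hw) core TGCATA (9.27% against 6.64%), the AT repeat ATATATAT (3.73% against 1.45%) and the GATA site GATAAG (7.47% against 6.09%) followed, all as summits against flanks. These differences were not matched for GC, and the part of base composition in them was not tested.

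Several GC-richer words were less frequent at summits than in flanks. The GAGA element GAGAGAG, the site of the Trl protein, was at 7 members (0.968%), against 3.73% of flanks and 1.38% of tiles. The E-boxes CAGCTG (2.77% against 5.19%) and CACGTG (0.277% against 1.59%), the CTCF core AGGNGGC (1.66% against 3.04%), CACACACA (2.77% against 4.15%), the Ets site CCGGAA (1.38% against 2.70%) and the Su(H) site GTGGGAA (0.553% against 1.66%) were lower than in flanks too. In the same order, tiles held them in 3.39%, 1.13%, 2.91%, 2.16%, 2.11% and 1.32% of cases. CACACACA was thus less frequent in tiles than at members.

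The words of Dref and M1BP, both known from core promoters, were about as rare at the members as in eligible sequence at large. TATCGATA, bound by Dref, a regulator of replication genes, occurred at 2 members (0.277%), against 0.415% of flanks and 0.260% of tiles, while 2.60% of promoter peaks held it. GGTCACACT, known as Ohler motif 1 and bound by M1BP, occurred at 0 of 723 members (exact 95% interval up to 0.509%), against 0% of flanks, 0.0249% of tiles and 1.16% of promoter peaks. The remaining words, among them the Zelda site CAGGTAG at 3 members (0.415%, against 0.484% of flanks), the AP-1 site TGANTCA and the Grainyhead site AACCGGTT at 4 members (0.553%, against 0.346%), differed between summits and flanks by less than 1 percentage point.

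**Figure D5:**
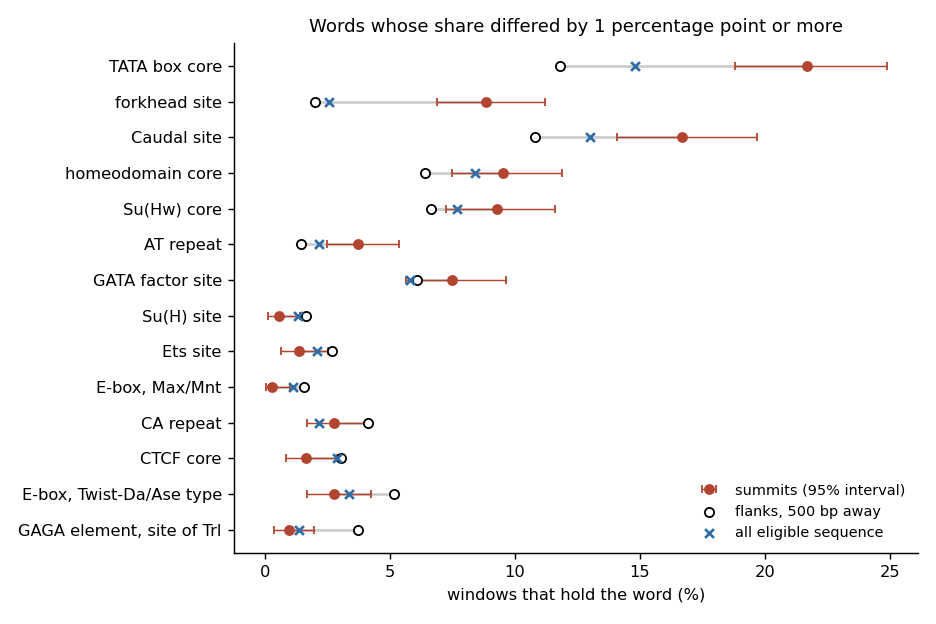
Share of windows (%) with each of the words whose shares at summits and flanks differed by 1 percentage point or more, for summits of the 723 intron peaks (with exact 95% intervals), the flanks 500 bp away and all eligible sequence. The forkhead site is at 8.85% of summits and 2.01% of flanks, and the GAGA element at 0.968% and 3.73%.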

How the data were processed

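Peak lists from 4 replicates of ChIP-seq for CG1233-GFP in whole embryos were used. Per the deposited text files, the lists are on dm6, each replicate was called against 1 shared control, and an irreproducible discovery rate (IDR) step gave the optimal list. The aligner and peak caller are not given in the sources used here. The deposited signal column, the caller's coverage score, ranked calls within a list. A further deposited column, −log10 of the q-value, served an alternative ranking. The deposited summit offset placed each summit. The files give no read counts, so depth is unknown.

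The optimal list equals the 5211 strongest of 30000 pooled calls, as a check of the files showed. Genes came from Ensembl 115 without transposable elements, and sequence from the RefSeq dm6 assembly. Eligible sequence is all intron sequence that meets the rule for members. It was tiled in windows of 101 bp. Both strands were searched for words, within 50 bp of the summit and of points 500 bp to either side. Values per replicate use its 5211 strongest calls, or for holding a peak the summit of one of them inside it. Differences over the 4 replicates were tested by two-sided exact sign-flip permutation. Shares carry exact 95% intervals, and a count of 0 a limit of 3 counts, for counting error only. Neighbouring peaks are not independent.

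The members, words and gene lists were chosen with earlier results of these data known. Of the listed symbols, 11 did not match. Named are the hosts of the 20 strongest members, hosts with 4 or more members, up to 3 hosts per list (all where a list is given in full) and features in counts of 5 or fewer. Sequences are from the strongest members held by all replicates, with those on arm 2R left out, and from the strongest member with each of the 4 words whose shares differed most. The sequence and values of 1 of the 20 strongest members, with its host, are not reported here. The alternatives were other limits on TSS distance and host length, the stronger peaks only, other rules for holding a peak, other windows and each replicate left out. Steps were checked on simulated data and run with Python 3.11.15, numpy 2.4.6, pandas 2.3.3, scipy 1.17.1 and matplotlib 3.10.9.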

Additional observations from a re-analysis of the deposited data

How the results depend on the processing

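Of 101 alternative values, 73 kept the direction of a tested difference, the interval of a share or a set range around a count. For tested differences only the sign was judged, not the size. Another 25 left the interval or range, 2 changed sign and 1 fell to 0. Of the alternatives for the share held by all 4 replicates, 7 left the interval and 2 kept it. The difference in held share between members and long-gene intron peaks changed sign with double the number of calls (-0.312 points) and with hosts under 30 kb (-0.0188), so it has no stable direction. Without single replicates it was 0.186 to 2.17 points. The rank difference between members and long-gene intron peaks was 0 when calls were ranked by q-value, a column in which the strongest calls are tied. Member counts were 301 with hosts under 10 kb, 355 in the stronger part of the optimal list and 369 with peaks held by all replicates. The share of members held by all replicates was 79.7% with double the calls, 60.7% with calls of −log10 q above 2, 55.5% with any overlap and 38.7% with reciprocal overlap of 50%, and 53.8 to 62.1% without single replicates. The first intron share was 79.0% with any transcript, a wider count given without its share of eligible sequence. Hosts with a promoter peak were 24.8% with a promoter of 200 bp (15.6% of other candidates), 64.3% with 1000 bp (24.5%) and 24.7% with the stronger peaks only (12.8%). The wider promoter takes in some of the members themselves. Windows of 25 and 100 bp around the summit held the forkhead word in 4.29% and 12.9% of members. The density ratio stayed between 0.86 and 1.22 on the log2 scale, the GC difference between -7.91 and -5.05 points and the forkhead difference on own calls between 3.47 and 7.93 points. The test of the forkhead difference on own calls and its alternatives, and the classes of GC, TSS distance and eligible sequence, were chosen after seeing the data. With 3 replicates the smallest p an exact permutation can give is 0.25. No depth is known, so no value could be weighted by it.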

Other observations

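The locus of the 2 strongest members, noticed from their ranks, held more of the strongest peaks than its members alone. The genes CG14434 and CG43736 together span 29.7 kb of X, from 6851909 to 6881580 on dm6. They held 13 optimal summits, of which 5 were intron peaks of short genes, and 5 of the 10 strongest peaks of the whole list lay there. The 3 weaker intron peaks, with summits at 6854725, 6855781 and 6856864, ranked 1064, 923 and 1217, and the first 2 of them were held by all replicates. At the promoter summit at 6868384 the replicates disagreed most in this locus among summits held by all 4, with ranks of 78 and 94 in replicates 1 and 3 and of 2151 and 2196 in replicates 2 and 4.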
